A study of Homo sapiens with 10 samples.

Results

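Kinesins are motor proteins that bind microtubules and spend ATP to walk along them or to take their ends apart. The kinesin superfamily was measured here in CH157-MN, an established line of human meningioma cells. Its genes were taken by symbol, as protein-coding rows named KIF plus a digit or KIFC plus a digit, which gave 43 genes of 58735 in the deposited table. The ADC group of 5 libraries came from CH157-MN cells harvested 3 days after 100 nM of a humanised antibody-drug conjugate, an antibody to the somatostatin receptor SSTR2 that carries the tubulin inhibitor MMAF. The PBS group of 5 libraries came from CH157-MN cells given phosphate-buffered saline, with no harvest day in the labels. All cells of both groups are this one line, and nothing in the labels says that replicates were separate cultures, so p-values measure only the spread between these libraries, which may be technical.

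Mitotic kinesins build the spindle, move chromosomes and complete cell division, and their genes are mostly transcribed late in the cell cycle. Transport kinesins carry vesicles, organelles and protein complexes along microtubules between divisions, in neurons above all. Of the 43 genes, 14 were classed as mitotic, 17 as transport and 12 as other, the last for ciliary, microtubule-regulating or poorly assigned genes. One of the 12, KIF1BP, encodes a protein that binds kinesins and has no motor, and matches by its symbol alone. CENPE and STARD9 are kinesins whose symbols do not match and are given separately.

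The promoters of the classes differed in the letters they held, which is given as a description. Genes of late cell division often carry a CHR element, a site of the DREAM and B-MYB complexes, close to the start of transcription, and upstream of it a CCAAT box, the site of the factor NF-Y. RefSeq promoters of GRCh38.p14, from 250 bases before to 50 after the gene start, were found for 35 of the 43 genes and searched on both strands for the CHR letters TTTGAA or TTCGAA and for CCAAT. The CHR letters were present in 11 of 14 mitotic promoters (78.6%), in 1 of 12 transport promoters (8.33%) and in 1 of 9 others (11.1%), against 16.6% of all 27305 promoters. CCAAT was present in 11 of 14 mitotic promoters (78.6%), 3 of 12 transport promoters (25%) and 4 of 9 others (44.4%), against 35.7% of all promoters. Both were present in 10 of 14 mitotic promoters, against 6.58% of all promoters. Among the mitotic genes KIF4B is a copy of KIF4A, and its window holds nearly the same stretch around the CHR match and a CCAAT match. These promoters are therefore not independent in the counts. A match describes letters and does not show a site, and no match says only that the letters are not in this window. The window of KIF5C lies inside the counted gene, and that of KIF24 lies well upstream of it, so neither covers the counted start. Windows follow the RefSeq start, and others miss the counted start too, some by a few bases only. Those of KIF20A, KIFC1, KIF9, KIF21A and KIF25 lie inside the counted gene. Those of KIF11, KIF18B, KIF3C, KIF1B, KIF1A and KIF26A lie upstream of it. The sequences given are the promoters of mitotic genes described later, then those of the most abundant transport gene and of the transport gene with the smallest adjusted p, with every CHR and CCAAT match in capitals (ATTGG and TTCAAA are the same letters on the other strand).
KIF4A (chrX:70289854-70290153, plus strand): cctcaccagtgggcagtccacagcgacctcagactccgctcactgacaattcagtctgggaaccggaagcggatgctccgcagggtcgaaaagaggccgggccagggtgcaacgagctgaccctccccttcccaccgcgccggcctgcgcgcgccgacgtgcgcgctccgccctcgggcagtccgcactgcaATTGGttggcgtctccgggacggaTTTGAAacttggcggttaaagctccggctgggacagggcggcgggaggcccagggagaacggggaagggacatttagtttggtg
KIF18B (chr17:44947724-44948023, minus strand): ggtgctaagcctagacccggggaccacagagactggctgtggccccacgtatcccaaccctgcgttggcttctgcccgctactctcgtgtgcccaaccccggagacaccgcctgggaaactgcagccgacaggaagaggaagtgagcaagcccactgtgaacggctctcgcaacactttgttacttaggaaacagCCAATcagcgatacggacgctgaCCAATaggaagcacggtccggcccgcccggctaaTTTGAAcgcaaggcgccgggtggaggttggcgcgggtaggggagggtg
KIF11 (chr10:92592880-92593179, plus strand): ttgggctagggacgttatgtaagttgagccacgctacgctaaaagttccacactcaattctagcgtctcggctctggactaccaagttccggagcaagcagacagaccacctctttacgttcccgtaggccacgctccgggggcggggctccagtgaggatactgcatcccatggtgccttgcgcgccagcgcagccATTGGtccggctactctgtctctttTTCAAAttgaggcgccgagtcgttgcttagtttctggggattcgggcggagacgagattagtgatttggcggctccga
KIF20B (chr10:89701340-89701639, plus strand): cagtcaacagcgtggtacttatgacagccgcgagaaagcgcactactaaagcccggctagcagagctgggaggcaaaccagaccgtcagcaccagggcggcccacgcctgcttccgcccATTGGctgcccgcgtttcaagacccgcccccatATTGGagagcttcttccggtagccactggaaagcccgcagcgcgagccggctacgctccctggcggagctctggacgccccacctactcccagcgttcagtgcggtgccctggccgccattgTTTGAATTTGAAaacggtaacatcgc
KIF20A (chr5:138178862-138179161, plus strand): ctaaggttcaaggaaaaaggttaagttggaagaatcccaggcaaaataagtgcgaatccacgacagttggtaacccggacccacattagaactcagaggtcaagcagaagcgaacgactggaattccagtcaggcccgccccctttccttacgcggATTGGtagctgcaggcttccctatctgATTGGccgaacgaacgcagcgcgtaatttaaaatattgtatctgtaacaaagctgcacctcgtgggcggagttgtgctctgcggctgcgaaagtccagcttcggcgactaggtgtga
KIF5B (chr10:32056376-32056675, minus strand): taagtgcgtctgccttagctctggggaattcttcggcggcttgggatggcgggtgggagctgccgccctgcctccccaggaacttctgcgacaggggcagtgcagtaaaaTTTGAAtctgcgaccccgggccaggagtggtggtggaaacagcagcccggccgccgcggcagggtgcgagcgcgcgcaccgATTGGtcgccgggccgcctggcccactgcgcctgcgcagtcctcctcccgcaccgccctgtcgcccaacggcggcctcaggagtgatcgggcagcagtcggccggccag
KIF3C (chr2:25982448-25982747, minus strand): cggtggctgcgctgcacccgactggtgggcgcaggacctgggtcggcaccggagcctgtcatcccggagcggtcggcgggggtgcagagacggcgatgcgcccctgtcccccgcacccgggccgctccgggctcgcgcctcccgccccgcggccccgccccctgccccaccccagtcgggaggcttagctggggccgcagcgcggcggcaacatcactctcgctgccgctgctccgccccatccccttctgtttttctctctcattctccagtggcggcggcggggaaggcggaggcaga

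Positions here are from the RefSeq gene start. In KIF4A and KIF11 the CHR match began 34 and 28 bases before that start, with a CCAAT match starting 58 and 53 bases before it. In KIF18B the CHR match began at base 3 after the start, downstream of a pair of CCAAT matches. KIF20B held adjoining CHR matches at bases 25 and 31 after the start, and KIF20A held CCAAT matches with no CHR letters in this window. The KIF20A window lies inside the counted gene, which starts at 138178719. The promoter of KIF3C held neither CHR nor CCAAT letters. KIF5B held a CHR match 140 bases before the start, farther upstream than any of the 12 CHR matches in mitotic promoters, which lay between 55 bases before and 31 after.

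**Figure D1:**
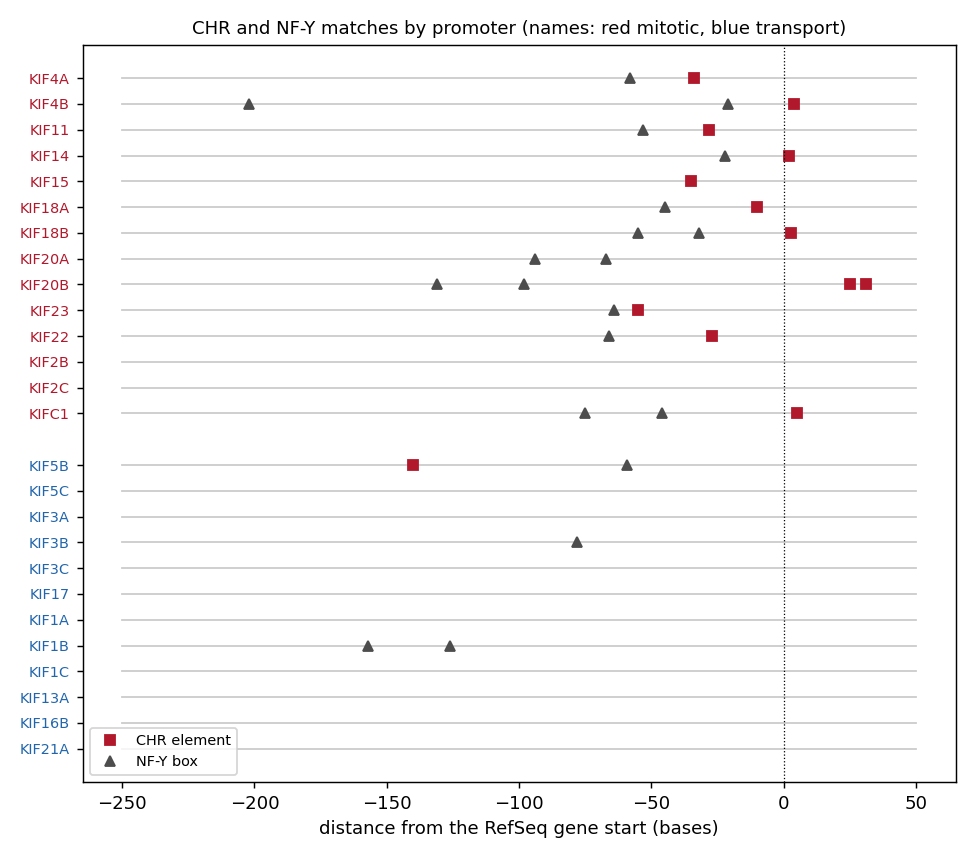
Position of each CHR match (red squares) and each CCAAT match, drawn as NF-Y box (grey triangles), by distance in bases from the RefSeq gene start, for 14 mitotic (red names) and 12 transport (blue names) kinesin promoters; each grey line is the searched window. Squares gather near the start in 11 of 14 mitotic promoters and appear in 1 of 12 transport promoters.

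Counts summed to 28638057 to 36463724 per ADC library and 28262162 to 34473795 per PBS library, of which kinesin genes took 0.267% to 0.289% in ADC and 0.264% to 0.283% in PBS libraries. In both groups the mesenchymal marker VIM was high (3538 ± 67.5 CPM in ADC and 3398 ± 123 CPM in PBS libraries, SD, n = 5), while PGR had 0 counts in all 10 libraries and the antibody target SSTR2 averaged 0.430 ± 0.103 CPM in ADC and 0.297 ± 0.263 CPM in PBS libraries. CPM are TMM-scaled counts relative to library size. The meningeal marker PTGDS was at or near 0. Of 4 neural and glial markers, RBFOX3 and SOX10 had 0 counts in all libraries, and the list summed to 50.7 to 55.2 CPM in ADC and 49.5 to 57.5 CPM in PBS libraries, nearly all of it MBP. The 3 endothelial markers summed to 1.90 to 3.02 CPM in ADC and 0.681 to 1.22 CPM in PBS libraries, and PECAM1 among them rose (log2 fold change 1.77). The 6 leukocyte markers summed to 0.273 to 0.556 CPM in ADC and 0 to 0.294 CPM in PBS libraries, with CD3E and MS4A1 at 0. The part of these low signals in the results was not tested. In bulk RNA, fewer cells of a kind and less RNA per cell cannot be told apart.

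On the TPM scale, which divides counts by gene length, the kinesin with the highest level was KIF5B, the ubiquitous heavy chain of conventional kinesin, at 322 ± 24 TPM in ADC and 311 ± 24 TPM in PBS libraries (SD, n = 5). It was followed in PBS cells by mitotic motors: KIFC1, which focuses spindle poles (153 ± 1 TPM in ADC, 157 ± 4 TPM in PBS), KIF11, which pushes the poles apart (150 ± 9 TPM in ADC, 152 ± 7 TPM in PBS), and KIF2C, a depolymerase that corrects attachments of chromosomes (140 ± 5 TPM in ADC, 143 ± 8 TPM in PBS). The PBS levels of KIFC1 and KIF11 differed by less than their spread. RPL12P1 on the other strand overlaps 12.7% of KIFC1 exonic bases, and whether counting used strand is unknown. KIF20A, KIF1C and KIF4A came next, between 102.5 and 133 TPM in PBS libraries. Of the transport kinesins, KIF1C (98.8 ± 3.6 TPM in ADC, 104 ± 3 TPM in PBS) and KIF3B (65.1 ± 4.5 TPM in ADC, 64.7 ± 3.1 TPM in PBS) followed KIF5B. The neuronal conventional kinesins were low, with KIF5C at 1.48 ± 0.36 TPM in ADC and 0.930 ± 0.085 TPM in PBS, and KIF5A at 0.543 ± 0.105 TPM in ADC and 0.451 ± 0.142 TPM in PBS.

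Summed over the class, mitotic kinesins reached 1044 to 1121 TPM in ADC and 1067 to 1148 TPM in PBS libraries, and transport kinesins 613 to 708 TPM in ADC and 599 to 693 TPM in PBS libraries. KIF5B made up 46.2% to 48.7% of the transport sum in ADC and 46.1% to 49.4% in PBS libraries. The ratio of the mitotic to the transport sum was 1.59, 1.64, 1.66, 1.54 and 1.70 in ADC libraries, against 1.70, 1.78, 1.72, 1.66 and 1.74 in PBS libraries. The groups overlapped. Without KIF5B the ratio ranged from 2.98 to 3.20 in ADC and from 3.27 to 3.37 in PBS libraries, and the groups did not overlap. These sums are a description and were not tested.

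**Figure D2:**
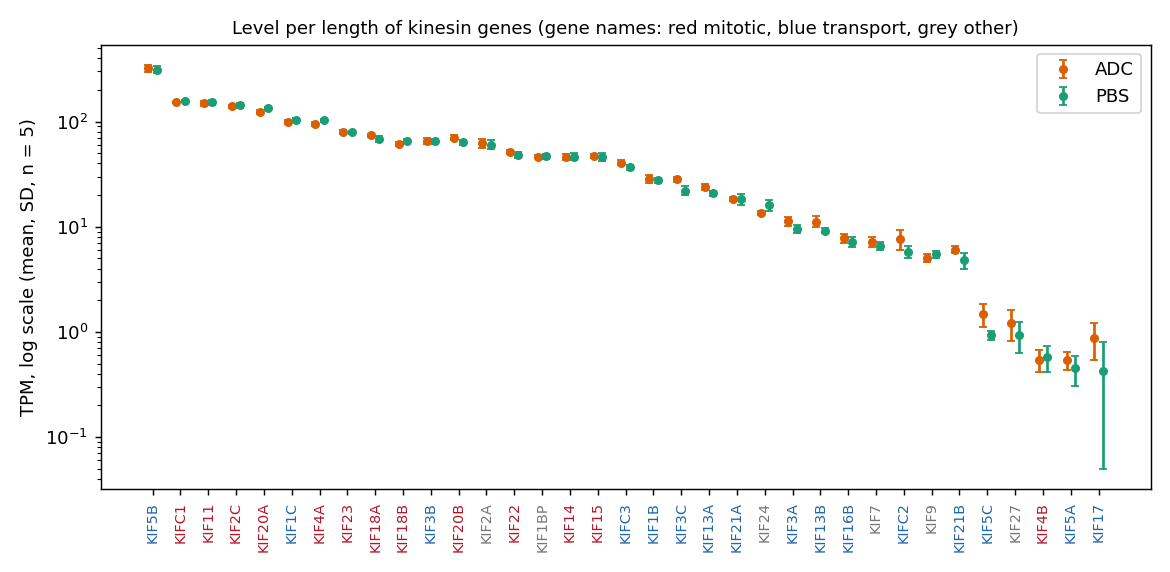
Mean TPM on a log scale with SD (n = 5) in ADC (orange) and PBS (green) libraries for the 35 kinesin genes above 0.3 TPM in PBS, in order of their PBS level, with gene names in red for mitotic, blue for transport and grey for other. KIF5B stands highest at 322 TPM in ADC and 311 TPM in PBS, and most mitotic genes stand left of most transport genes.

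The comparison asks how kinesin transcripts differed after exposure to the conjugate. Genes were tested with edgeR's quasi-likelihood test over the whole table, where 20.8% of 14504 tested genes were called at adjusted p below 0.05, 10.8% higher (1562 genes) and 10% lower (1456 genes). Of the 36 kinesin genes that passed the filter on low counts, 13 were called (36.1%), 8 higher and 5 lower. The 8 that rose were KIF20B and 7 transport kinesins (KIF5C, KIFC2, KIF3C, KIF21B, KIF13B, KIF13A and KIFC3). The 5 that fell were the mitotic KIF20A, KIF4A and KIF18B, the transport kinesin KIF1C and the centriolar KIF24. Of the 36 tested kinesin genes, 2 that rose (KIF3C and KIF5C) and 3 that fell (KIF20A, KIF18B and KIF1C) had no overlap between ADC and PBS libraries. Of all tested genes 14.2% had no overlap, so this count is near the background. When libraries were scaled by their totals without TMM, 1835 of all genes were called higher and 1063 lower, and of the kinesin genes 9 higher, KIF3A among them (adjusted p = 0.0359), and 2 lower, with KIF4A, KIF18B and KIF1C no longer called (adjusted p = 0.0629, 0.125 and 0.0781). Without PBS replicate 3 a single kinesin gene, KIF20A, was called lower, and without ADC replicate 2, 3 or 4 the count lower was 3. Without ADC replicate 1 or 3 the count higher was 5.

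Of 13 tested mitotic kinesins 1 rose, 3 fell and 9 were not called, with a median log2 fold change of -0.043. The kinetochore kinesin CENPE, outside the symbol rule and so not counted here, rose more than any of them (log2 fold change 0.50, adjusted p = 8.45e-06). STARD9, also outside the rule, was not called. Of 16 tested transport kinesins 7 rose, 1 fell and 8 were not called, with a median of 0.19, and 13 of the 16 fold changes were above 0. The median over all tested genes was -0.0022. Without ADC replicate 3 the transport kinesins called higher numbered 4, and without ADC replicate 4 or PBS replicate 3 the mitotic kinesins called lower numbered 1. Level differs between the classes, so shares are also given by level. Among all tested genes with a mean of at least 50 CPM, 12.1% rose and 21.9% fell, and the 12 mitotic kinesins at that level (1 higher, 3 lower, or 8.33% and 25%) were near these shares. Among all genes between 5 and 50 CPM 13.7% rose and 7.35% fell, while of the 7 transport kinesins at that level 4 rose (57.1%) and 0 fell. At 50 CPM or more, 2 of 6 transport kinesins rose and 1 fell. The transport median was 0.021 at that level, against -0.029 for all genes. Between 5 and 50 CPM the medians were 0.26 and 0.0092, and below 5 CPM, with 3 transport kinesins, 0.65 and 0.062. For the 12 transport kinesins of at least 10 CPM in PBS libraries the median was 0.11, so the value of 0.19 leans on genes of low level. The difference between the classes was not tested, since the members were chosen with earlier results of these data known.

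**Figure D3:**
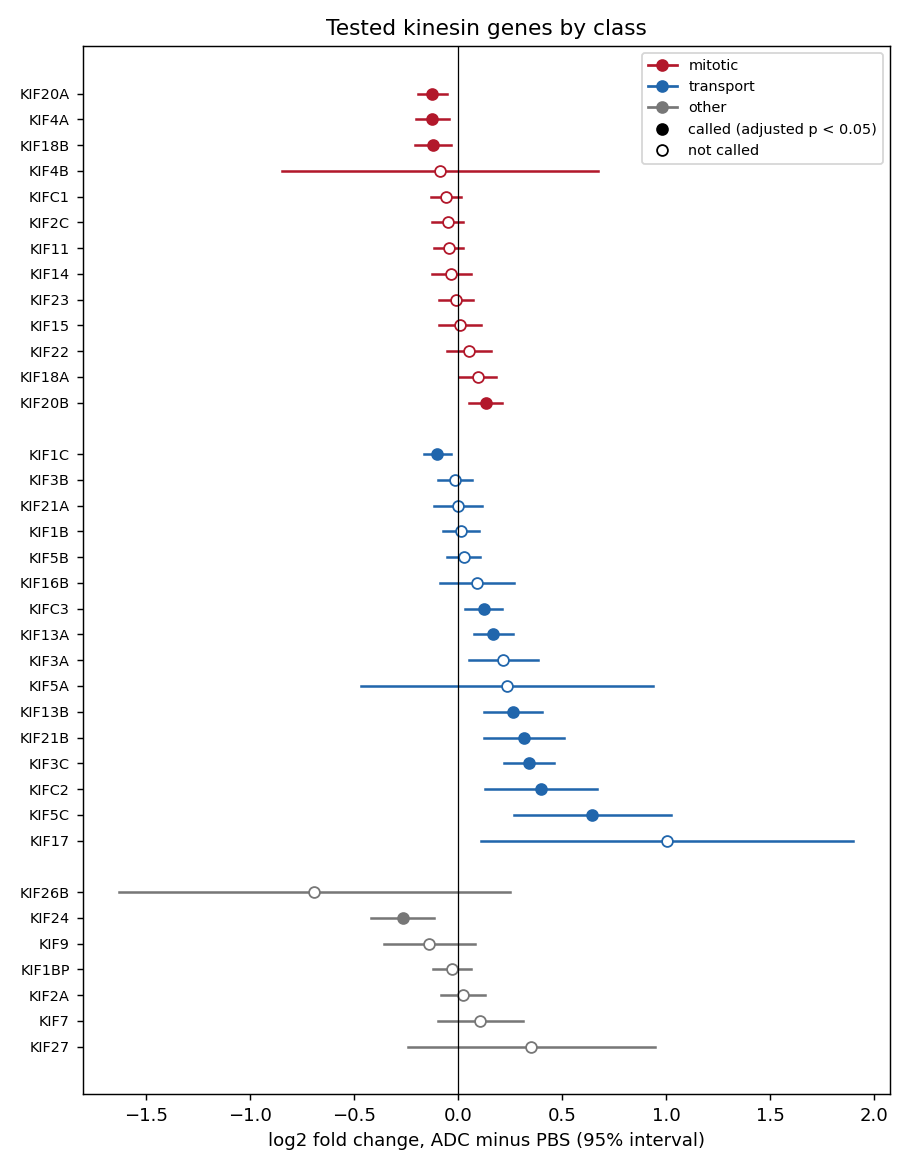
Log2 fold change of ADC minus PBS with its 95% interval for the 36 tested kinesin genes, grouped into mitotic (red), transport (blue) and other (grey); filled points were called at adjusted p below 0.05. Mitotic genes lie between -0.12 and 0.13, and 13 of 16 transport genes lie above 0. CENPE, a kinesin outside the symbol rule, is not drawn.

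None of the 4 motors of early mitosis, KIF11, KIF15, KIFC1 and KIF2C, was called. KIF11, which slides antiparallel microtubules, had 192, 192, 186, 184 and 174 CPM in ADC libraries, against 185, 189.9, 194, 197 and 190.1 CPM in PBS libraries. The groups overlapped, and the change was not called (log2 fold change -0.043, SE 0.034, adjusted p = 0.413; 95% interval -0.11 to 0.027). KIFC1 had 130.5, 129, 132, 127 and 134 CPM in ADC libraries, against 138, 136, 142, 131 and 131 CPM in PBS libraries, and the groups overlapped. It was not called (log2 fold change -0.055, 95% interval -0.13 to 0.017). KIF2C had 127, 135, 132, 129 and 127 CPM in ADC libraries, against 127, 137, 132, 135 and 142 CPM in PBS libraries, again overlapping and not called (log2 fold change -0.05, 95% interval -0.12 to 0.025). KIF15, which can back up KIF11 on the spindle, was not called either (log2 fold change 0.0092, 95% interval -0.092 to 0.11). For these 4 genes the intervals end within 0.13 of 0 on the log2 scale.

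The chromosome-bound motors and those at microtubule plus ends differed among themselves. KIF4A, which binds chromosome arms and later limits the central spindle, had 111, 113, 116, 102 and 109 CPM in ADC libraries, against 115, 121, 126, 119 and 121 CPM in PBS libraries. It fell (log2 fold change -0.12, SE 0.039, adjusted p = 0.0227), with ADC replicate 3 above PBS replicate 1. KIF18B, which shortens astral microtubules, had 74.5, 68.5, 71.9, 72.7 and 72.3 CPM in ADC libraries, against 82.6, 75.3, 81.7, 74.6 and 76.5 CPM in PBS libraries. All ADC values lay below all PBS values, the highest ADC value just under the lowest PBS value, and KIF18B fell (log2 fold change -0.12, SE 0.043, adjusted p = 0.0477). KIF18A, which damps the movements of aligned chromosomes, averaged 88.5 ± 3.1 CPM in ADC and 82.9 ± 4.5 CPM in PBS libraries and was not called (log2 fold change 0.095, adjusted p = 0.12), and KIF22, which pushes chromosome arms away from the poles, was not called (0.055, adjusted p = 0.50). A gene on the other strand overlaps 13% of KIF22 exonic bases. KIF4A is the parent of the intronless copy KIF4B, which had 14 to 28 counts in ADC and 15 to 27 counts in PBS libraries and was not called (adjusted p = 0.907), and reads of the pair are uncertain. The call of KIF4A was lost without ADC replicate 4 (adjusted p = 0.099) or PBS replicate 3 (0.078), and that of KIF18B without ADC replicate 2, 3, 4 or 5 or PBS replicate 1, 3 or 5 (adjusted p of 0.061 to 0.15).

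Motors of cytokinesis moved in both directions. KIF20A, which carries Aurora B to the central spindle, had 129.7, 126, 124, 124 and 121 CPM in ADC libraries, against 138, 134, 140.4, 137 and 132 CPM in PBS libraries. Every ADC value lay below every PBS value, and KIF20A fell (log2 fold change -0.12, SE 0.035, adjusted p = 0.0107). It lies on hg38 chromosome 5 from 138178719 to 138187715 on the plus strand, and 5.05% of its exonic bases overlap genes on the other strand. Whether counting used strand is unknown, so reads from such overlaps cannot be told apart. Its paralog KIF20B, which acts at the end of cytokinesis, had 131, 126, 121, 120.1 and 116 CPM in ADC libraries, against 114, 105, 115, 117 and 109 CPM in PBS libraries. KIF20B rose (log2 fold change 0.13, SE 0.039, adjusted p = 0.0144), with overlap only where ADC replicate 5 lay below PBS replicate 4, and lost its call without ADC replicate 1 (adjusted p = 0.060). KIF20B lies on chromosome 10 from 89701610 to 89774939 on the plus strand. KIF23, the motor of centralspindlin, had 134, 140.4, 133, 121 and 141 CPM in ADC libraries, against 136, 138, 129, 133 and 139 CPM in PBS libraries and was not called (log2 fold change -0.0095, 95% interval -0.09 to 0.071). KIF14, a partner of citron kinase, was not called (log2 fold change -0.031, adjusted p = 0.70). KIF2B had 0 counts in all 10 libraries.

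**Figure D4:**
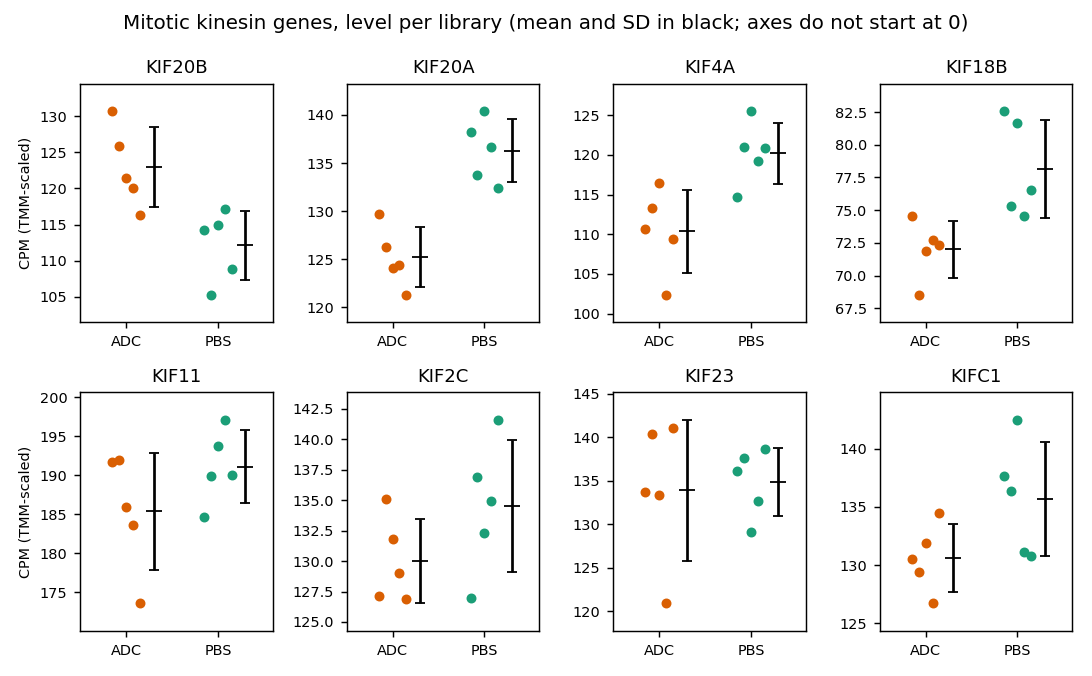
CPM of 8 mitotic kinesin genes in each of 5 ADC (orange) and 5 PBS (green) libraries, with mean and SD in black; the axes do not start at 0. KIF20A and KIF18B show no overlap, KIF20B stands higher in ADC libraries, and KIF11, KIF2C, KIF23 and KIFC1 overlap.

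CENPE, the kinetochore kinesin outside the symbol rule, had 43.9, 36.1, 41.2, 37.1 and 37 CPM in ADC libraries, against 30.5, 23.5, 30.2, 30.2 and 24.1 CPM in PBS libraries. All ADC values lay above all PBS values (log2 fold change 0.50, SE 0.074, adjusted p = 8.45e-06). STARD9, a centrosomal kinesin, was not called (log2 fold change 0.069, adjusted p = 0.76). Among 21 regulators and partners of mitotic kinesins 0 rose, 3 fell (14.3%) and 18 were not called, with a median log2 fold change of -0.034. Of all tested genes 20.8% were called and 10% fell, and of those at 50 CPM or more 21.9% fell, so the count is near the background. INCENP and AURKB, parts of the chromosomal passenger complex that KIF20A carries, fell by 0.20 and 0.19 on the log2 scale (adjusted p = 0.000315 and 0.000565), and BIRC5, another part, fell by 0.12 (adjusted p = 0.00959). CDCA8, a further part, was not called (log2 fold change 0.0083, adjusted p = 0.90). The proliferation markers MKI67 and TOP2A were not called (adjusted p = 0.60 and 0.95).

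Among the conventional kinesins of the transport class, only KIF5C was called. KIF5B had 503, 491, 475, 498 and 439.6 CPM in ADC libraries, against 472, 432, 491, 503 and 464 CPM in PBS libraries. The groups overlapped and KIF5B was not called (log2 fold change 0.028, 95% interval -0.051 to 0.11). KIF5C, a heavy chain best known from neurons, had 4.6, 2.62, 3.57, 3.75 and 2.8 CPM in ADC libraries, against 1.99, 2.31, 2.32, 2.4 and 2.06 CPM in PBS libraries. All ADC values lay above all PBS values, with ADC replicate 1 highest, and KIF5C rose 1.57-fold (log2 fold change 0.65, SE 0.18, adjusted p = 0.0113). Its call was lost without ADC replicate 1 (log2 fold change 0.52, adjusted p = 0.060). It lies on chromosome 2 from 148875250 to 149026759 on the plus strand, and it made up 0.339% to 0.578% of the conventional heavy chain TPM in ADC and 0.268% to 0.340% in PBS libraries. KIF5A, the other neuronal heavy chain, had 23 to 38 counts in ADC and 15 to 35 counts in PBS libraries and was not called (adjusted p = 0.69).

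In kinesin-2, KIF3A pairs with KIF3B or with KIF3C. KIF3C had 47.8, 48.8, 46.8, 43.4 and 44.1 CPM in ADC libraries, against 35.1, 37.4, 32.2, 40.3 and 37.5 CPM in PBS libraries. Every ADC value lay above every PBS value. KIF3C had the smallest adjusted p of the kinesin genes taken by symbol (log2 fold change 0.34, SE 0.058, adjusted p = 5.97e-05), a 1.27-fold rise that held without any single library. It lies on chromosome 2 from 25926596 to 25982749 on the minus strand. KIF3B averaged 101 ± 5 CPM in ADC and 102 ± 4 CPM in PBS libraries and was not called (log2 fold change -0.013, 95% interval -0.096 to 0.07). KIF3C made up 28.1% to 31.9% of the summed KIF3B and KIF3C TPM in ADC libraries, against 22.7% to 26.9% in PBS libraries, without overlap. KIF3A had 22.7, 19.1, 20.3, 17.9 and 18.9 CPM in ADC libraries, against 17.8, 15.9, 18.3, 18.1 and 15.1 CPM in PBS libraries. ADC replicate 4 alone lay inside the PBS range, and KIF3A was not called (log2 fold change 0.22, SE 0.081, adjusted p = 0.0525), but passed without ADC replicate 4 (adjusted p = 0.030) or PBS replicate 3 (0.048). KIF17, a motor of dendrites, had 13 to 43 counts in ADC and 6 to 42 counts in PBS libraries and was not called (log2 fold change 1.01, SE 0.44, adjusted p = 0.105), while leaving out PBS replicate 5, which had the 42 counts, gave 1.71 on the log2 scale (adjusted p = 0.00721).

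Kinesin-3 motors carry vesicles, endosomes and mitochondria. KIF13B, which moves the scaffold DLG1, had 36.8, 33.3, 30.1, 30.8 and 27.8 CPM in ADC libraries, against 25.5, 27.7, 28.4, 25.2 and 25.4 CPM in PBS libraries. It rose (log2 fold change 0.26, SE 0.069, adjusted p = 0.00582), with ADC replicate 5 alone inside the PBS range. KIF13A, a motor of recycling endosomes, had 71.2, 68.7, 68, 68 and 62.6 CPM in ADC libraries, against 64, 57.4, 59.4, 62.1 and 58 CPM in PBS libraries. It rose (log2 fold change 0.17, SE 0.046, adjusted p = 0.00774), and again ADC replicate 5 alone lay inside the PBS range. KIF1C, a motor of Golgi-derived vesicles, had 212, 214, 216, 223 and 216 CPM in ADC libraries, against 227, 236, 240.2, 225 and 230.1 CPM in PBS libraries. Every ADC value lay below every PBS value, and KIF1C fell (log2 fold change -0.099, SE 0.031, adjusted p = 0.0228), losing its call without ADC replicate 1, 2 or 3 or PBS replicate 3 (adjusted p of 0.051 to 0.082). KIF1B, a carrier of mitochondria and synaptic vesicle precursors, had 132, 121, 137, 134 and 117 CPM in ADC libraries, against 128, 119.8, 131, 127 and 127 CPM in PBS libraries. The groups overlapped and it was not called (log2 fold change 0.015, 95% interval -0.07 to 0.1). KIF16B, a motor of early endosomes, was not called (log2 fold change 0.093, 95% interval -0.085 to 0.27), and its neuronal relative KIF1A had 2 counts in ADC replicate 2 and 0 elsewhere.

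The remaining transport kinesins included 3 that rose. KIF21B, which regulates microtubule growth in neurons, had 19.6, 18.5, 20.9, 17.2 and 17.9 CPM in ADC libraries, against 12.7, 15, 17.5, 17.8 and 12.6 CPM in PBS libraries. It rose (log2 fold change 0.32, SE 0.094, adjusted p = 0.014), with PBS replicates 3 and 4 inside the ADC range. Its paralog KIF21A was not called, at 47.5 ± 1.4 CPM in ADC and 47.6 ± 4.6 CPM in PBS libraries. KIFC2, known from axons and dendrites in mouse, had 8.1, 6.37, 9.36, 8.21 and 11.9 CPM in ADC libraries, against 7.02, 6.2, 5.79, 7.6 and 6.62 CPM in PBS libraries. It rose (log2 fold change 0.40, SE 0.13, adjusted p = 0.0275), with ADC replicate 2 inside the PBS range and ADC replicate 5 highest, and 17.8% of its exonic bases overlap FOXH1 on the other strand. Other genes on the opposite strand overlap 7.78% of KIF13B and 5.6% of KIFC3 exonic bases. KIFC3, a minus-end motor of epithelial junctions, had 102, 93, 101, 102 and 100.5 CPM in ADC libraries, against 87.2, 102, 90.2, 90.8 and 87.2 CPM in PBS libraries. It rose (log2 fold change 0.12, SE 0.043, adjusted p = 0.0387), with PBS replicate 2 among the ADC values and ADC replicate 2 nearest to the PBS values. Calls were lost for KIF21B without ADC replicate 3 or PBS replicate 1 or 5 (adjusted p of 0.052 to 0.058), for KIFC2 without ADC replicate 3 or 5 or PBS replicate 2 or 3 (0.053 to 0.13), and for KIFC3 without any library but ADC replicate 2 or PBS replicate 2 (0.053 to 0.11). With GC and length trends removed, KIFC2 (log2 fold change 0.32, adjusted p = 0.070) and KIFC3 (0.074, adjusted p = 0.15) were also not called.

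**Figure D5:**
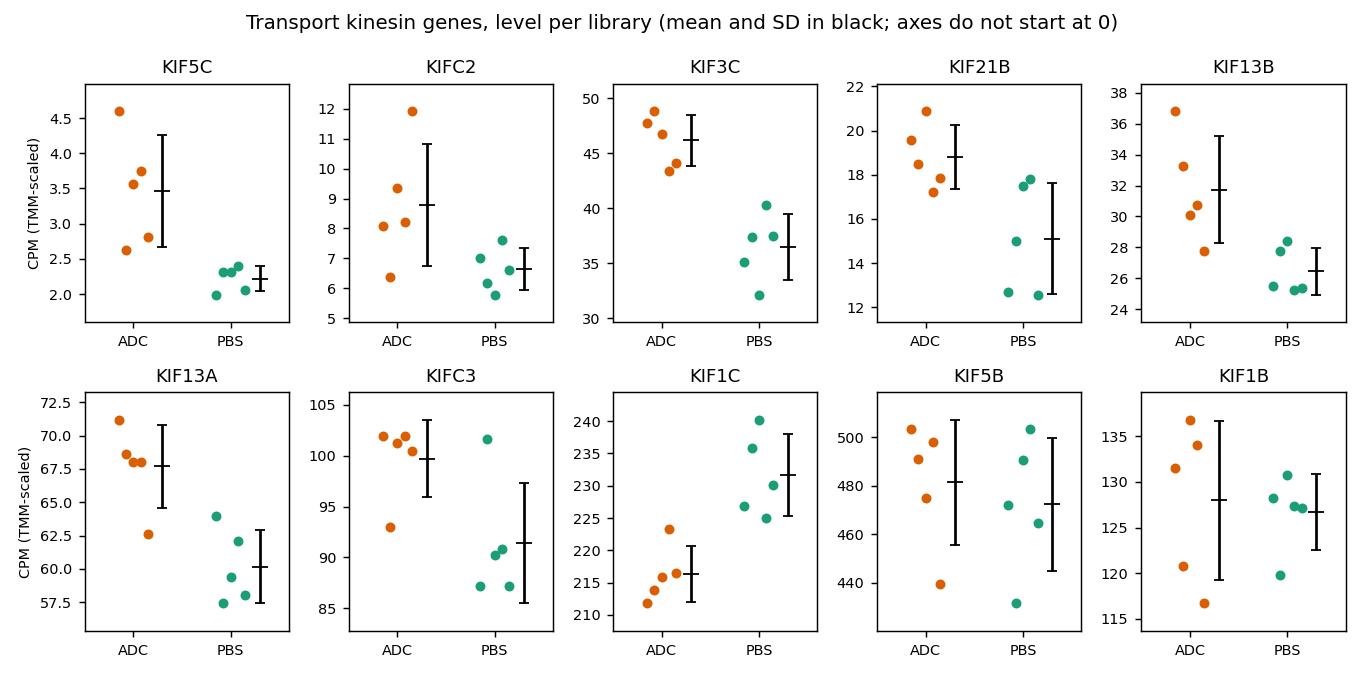
CPM of 10 transport kinesin genes in each of 5 ADC (orange) and 5 PBS (green) libraries, with mean and SD in black; the axes do not start at 0. KIF5C and KIF3C stand higher in ADC libraries with no overlap, KIF1C stands lower with no overlap, and KIF5B and KIF1B overlap.

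Adaptors and light chains link transport kinesins to cargo. Of 22 genes listed here as partners in transport, not all of them established kinesin adaptors, 19 were tested. Of these 4 rose (21.1%), 1 fell (5.26%) and 14 were not called, against 10.8% higher and 10% lower of all tested genes. The median log2 fold change was 0.030, against -0.0022 over all genes. KLC4, a kinesin light chain, rose (log2 fold change 0.48, adjusted p = 0.000389). HOOK2, a cargo adaptor of the Hook family, averaged 6.79 ± 0.73 CPM in ADC and 4.59 ± 0.54 CPM in PBS libraries (SD, n = 5) and rose with an edgeR log2 fold change of 0.56 (adjusted p = 0.00145). Whether HOOK2 serves kinesins in these cells was not tested. Of 21 dynein and dynactin genes, the motor that runs the opposite way, 1 rose and 3 fell, with a median log2 fold change of 0.0049. The 19% called is near the 20.8% of all tested genes. DCTN2, a dynactin subunit, rose by 0.16 (adjusted p = 0.0046), and DYNLL2 and DYNC1LI1, dynein light and light intermediate chains, fell by 0.14 and 0.12 (adjusted p = 0.0049 and 0.015).

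Of the 12 other genes 7 were tested, and 1 was called. KIF24, which restrains the formation of cilia at the mother centriole, had 21, 20.4, 20.6, 21.9 and 22.8 CPM in ADC libraries, against 24.7, 22.7, 30.6, 24.7 and 25.3 CPM in PBS libraries. It fell (log2 fold change -0.26, SE 0.074, adjusted p = 0.0103), with ADC replicate 5 just inside the PBS range and PBS replicate 3 highest, and lost its call without PBS replicate 3 (log2 fold change -0.19, adjusted p = 0.062). Its RefSeq promoter window, from 34329219 to 34329518 on chromosome 9, held a CHR match and 3 CCAAT matches. On this minus-strand gene the window lies well upstream of the counted start at 34311371. KIF2A, a depolymerase of spindle poles and of neurites, was not called (log2 fold change 0.025, 95% interval -0.081 to 0.13), and 8.97% of its exonic bases are shared with IPO11 on its strand. KIF7, a regulator of Hedgehog signalling in cilia, was not called (0.11, adjusted p = 0.49), nor were KIF9, KIF27, KIF26B and KIF1BP (adjusted p of 0.32 to 0.72). KIF19 and KIF26A had 0 counts in all 10 libraries, and KIF6, KIF12 and KIF25 at most 6 counts in any. With 0 counts in a library, the upper 95% bound on the level was 0.0823 to 0.106 CPM, or 3 counts, at these depths, counting error alone considered.

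Set against the promoters, 13 tested kinesin genes held CHR letters, of which KIF20B rose and KIF4A, KIF18B and KIF24 fell, with a median log2 fold change of -0.031. Of the 16 tested genes whose promoter was found without them, KIF3C, KIF13A and KIF5C rose and KIF20A and KIF1C fell, with a median of 0.020. The KIF5C window begins at 148947625 on chromosome 2, inside the counted gene, which starts at 148875250. The windows of KIF5C and KIF24 therefore do not describe the start of the counted gene. Those of KIF20A, KIF11, KIF18B, KIF3C and others named with the promoters miss the counted start as well. Genes with and without the letters moved in both directions. Of all tested genes 10.8% rose and 10% fell. KIF13B, KIF21B, KIFC2 and KIFC3, all transport kinesins that rose, had no promoter sequence and are in neither group.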

How the data were processed

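Poly(A) RNA of 5 ADC and 5 PBS libraries was sequenced on an Illumina instrument, per the labels' protocols. The authors deposited whole-number counts per gene, not normalised. The submitters' processing notes name HISAT2, HISAT, TopHat2 and hg38. The counter, its strand setting and its annotation were not given in the sources used here. Identifiers and positions matched GENCODE release 29. Gene length, an other kind of value in the deposited table, set TPM.

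Counts were TMM-scaled (factors 0.979 to 1.02) and kept by filterByExpr (minimum count 10, minimum total 15), leaving 14504 genes. ADC was compared with PBS with edgeR 4.0.16 in R 4.3.3, by its two-sided quasi-likelihood test, with Benjamini-Hochberg adjustment over all genes. SE was taken from the fold change and the F statistic. The common coefficient of variation between libraries was 7.60%. The test was tested on simulated data. DESeq2 1.42.0, limma-voom (limma 3.58.1), other scalings and filters, a replicate block, halved counts and leaving out each library were tried, and removal of GC and length trends was added after seeing the data.

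Every kinesin gene is named. Called ones and 7 chosen others have a value per library. Of the partner lists, the 2 called genes with the smallest adjusted p per direction are named, and BIRC5, CDCA8, MKI67 and TOP2A besides, chosen after their values were seen. A few list members are not reported here by name. Members and lists were chosen with earlier results of these data known. Kinesin rows that are not protein-coding, 7 in all, were left out.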

Additional observations from a re-analysis of the deposited data

Results flagged for a closer look

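Within a group of 5, a library was singled out where its gap to the nearest other library exceeded 0.71 of the group's range, which chance alone meets in about 1 of 20 groups. Of 72 combinations of a kinesin gene and a group, 4 met it. KIFC3 was lowest in ADC replicate 2 at 93.0 CPM, where the other ADC libraries had 100.5 to 102 CPM. KIFC3 was highest in PBS replicate 2 at 101.6 CPM, where the other PBS libraries had 87.2 to 90.8 CPM. KIF17 was highest in PBS replicate 5 at 1.24 CPM, where the others had 0.204 to 0.385 CPM. KIF26B was lowest in PBS replicate 2 at 0.267 CPM, where the others had 0.765 to 0.919 CPM. The cause was not tested for any of them.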

How the results depend on the processing

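Of the 13 called kinesin genes, KIF3C, KIF13A, KIF13B and KIF20A were called in the same direction under all 19 alternatives. The other 9 kept their direction under all 19 and lost the call under 1 to 11, most often KIF18B (11), KIFC3 (9) and KIFC2 (6). With each library left out in turn, the number called higher was 5 to 8 and the number called lower 1 to 5, and scaling by library size alone left 2 lower. The median log2 fold change was -0.0529 to -0.00977 for mitotic and 0.134 to 0.217 for transport kinesins. With all libraries, the transport median depended on level and was 0.11 for the 12 genes of at least 10 CPM in PBS libraries.

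Direction turned only in genes that were not called and lay near 0. Scaling by library size alone gave 0.0125 for KIF23, 0.00946 for KIF3B and 0.0218 for KIF21A. Removing GC and length trends, chosen after seeing the data, gave 0.0185 for KIF23 and 0.00943 for KIF21A, and called KIF18A (0.144, adjusted p = 0.00905). KIF21A also turned with limma-voom (0.00942), a mean of at least 1 CPM (0.00336) and halved counts (0.00249). Leaving out libraries gave log2 fold changes of -0.00241 to 0.0603 for KIF5B, -0.0267 to 0.0295 for KIF23, -0.0323 to 0.0107 for KIF3B, -0.0141 to 0.0654 for KIF2A and -0.048 to 1.46e-05 for KIF1BP. The ranges were -0.0562 to 0.00198 for KIF14, -0.0226 to 0.0386 for KIF15, -0.00861 to 0.0475 for KIF1B, -0.0316 to 0.0479 for KIF21A and -0.216 to 0.0116 for KIF4B. The cause was not tested.

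With a replicate block all 13 calls held, KIF21A turned to 0.00327, and KIF3A (0.217, adjusted p = 0.0464) and KIF17 (1.19, adjusted p = 0.0419) were also called. The deviations of same-numbered libraries from their group means correlated by -0.00717 to 0.0404, so no shared effect of the number was seen. Whether same-numbered libraries were handled as pairs cannot be told from these correlations. KIF3A was also called with DESeq2 (adjusted p = 0.0365), limma-voom (0.0435), library size alone (0.0359), a mean of at least 1 CPM (0.0439), halved counts (0.0452) and GC and length trends removed (0.0184). Depth limits KIF17, KIF5A, KIF4B, KIF26B and KIF27, with at most 64 counts in any library.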
